A study of Homo sapiens with 12 samples.

Results

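The 9 genes described here, HLA-B, HLA-C, HLA-E, B2M, TAP1, TAP2, PSMB8, PSMB9 and NLRC5, encode or control the machinery that presents peptides on MHC class I molecules. They were chosen by name as a list of class I presentation genes, and each symbol was matched to its Ensembl ID in the table of raw counts. All 9 were found among the 60663 gene IDs of the table, and all 9 passed the filter on low counts that left 20714 genes. Their RNA was measured in RCC4, a cell line from a clear cell renal cell carcinoma. VHL-negative cells carry the line's loss of VHL, and VHL-positive cells are the same line after reintroduction of VHL. The construct and its promoter are not described in the labels. Below, VHL status names the kind of cell. An effect of VHL itself cannot be told apart from other differences between these cells, such as clone or history of selection. Both kinds of cell were kept in medium with geneticin, a selection antibiotic, and were treated with 5 µM JQ1 or with DMSO, its solvent control. JQ1 is an inhibitor of BET bromodomain proteins, which the labels call a MYC inhibitor, and the labels do not give the duration of treatment. The 12 libraries of rRNA-depleted total RNA formed 4 groups of 3: VHL-negative cells with JQ1, VHL-negative cells with DMSO, VHL-positive cells with JQ1 and VHL-positive cells with DMSO. The labels do not say that replicates were separate cultures, so the p-values measure the spread between these libraries, which may be technical. In bulk RNA, fewer cells expressing a gene and less RNA per cell cannot be told apart.

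MHC class I molecules carry peptides from inside the cell to its surface, where CD8 T cells and natural killer cells read them. The proteasome cuts proteins into peptides, the TAP transporter moves these into the endoplasmic reticulum, and there a heavy chain folds with β2-microglobulin and a peptide. Interferon gamma induces most of these genes together and exchanges catalytic subunits of the constitutive proteasome for those of the immunoproteasome. NLRC5 has no DNA-binding domain of its own and acts at class I promoters with RFX, CREB/ATF and NF-Y proteins, which bind a module of X and Y boxes. Loss of these genes in tumours is a known route of escape from T cells.

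On GRCh38 (GENCODE release 29), HLA-B lies on chromosome 6 at 31269491-31357188, HLA-C at 31268749-31272130 and HLA-E at 30489467-30494205. TAP2 (32821833-32838780), PSMB8 (32840717-32844703), TAP1 (32845209-32853978) and PSMB9 (32844136-32859585) form a dense cluster in the class II region of the same chromosome. B2M lies on chromosome 15 at 44711487-44718877 and NLRC5 on chromosome 16 at 56989485-57083531. Values per length below use the merged annotated exons of a gene. Whether the counting used strand is not given, so reads of overlapping genes cannot be told apart: other genes overlap 20.6% of the exonic bases of PSMB8 (PSMB8-AS1 and PSMB9, opposite strand), 9.49% of TAP1 (PSMB8-AS1), 32.3% of TAP2 (ENSG00000250264, same strand), 5.66% of PSMB9 and 18.9% of HLA-B, but 0% of HLA-E, B2M and NLRC5. HLA-B, HLA-C and HLA-E are similar over long stretches, so the split of reads among the heavy chains is uncertain.

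RefSeq promoters (GRCh38.p14, 250 bases before to 50 bases after a start) were matched for 7 of the 9 members; HLA-E and NLRC5 had no entry. The 6 printed below, 5′ to 3′ on the strand of the gene and 300 bases each, belong to the 6 members with the largest differences between VHL-negative and VHL-positive cells under DMSO. Capitals mark matches, on either strand, to an interferon regulatory factor core (AANNGAAA), a kappa B site, an X2 or cyclic AMP response core (TGACG) and a Y box (CCAAT); a match is only a description of letters. They are reference sequence, not the HLA alleles of RCC4.
HLA-B, chr6:31357130-31357429, minus strand: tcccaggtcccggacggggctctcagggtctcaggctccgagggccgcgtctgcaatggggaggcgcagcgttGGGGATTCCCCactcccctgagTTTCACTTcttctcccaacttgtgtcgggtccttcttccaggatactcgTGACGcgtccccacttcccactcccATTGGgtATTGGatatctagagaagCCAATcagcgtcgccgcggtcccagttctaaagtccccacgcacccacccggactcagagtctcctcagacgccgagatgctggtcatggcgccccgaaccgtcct
HLA-C, chr6:31272043-31272342, minus strand: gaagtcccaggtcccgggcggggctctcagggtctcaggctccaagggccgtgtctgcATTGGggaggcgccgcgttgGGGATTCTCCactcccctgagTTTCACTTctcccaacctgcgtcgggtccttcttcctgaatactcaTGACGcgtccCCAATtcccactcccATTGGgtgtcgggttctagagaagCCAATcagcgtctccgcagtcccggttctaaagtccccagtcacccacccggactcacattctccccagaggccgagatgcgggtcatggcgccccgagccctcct
B2M, chr15:44711267-44711566, plus strand: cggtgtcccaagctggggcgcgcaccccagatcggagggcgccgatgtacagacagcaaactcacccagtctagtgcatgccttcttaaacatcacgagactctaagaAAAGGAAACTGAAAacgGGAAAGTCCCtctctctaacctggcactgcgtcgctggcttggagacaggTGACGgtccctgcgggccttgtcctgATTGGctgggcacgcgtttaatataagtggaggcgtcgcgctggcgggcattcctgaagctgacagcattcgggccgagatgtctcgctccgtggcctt
TAP1, chr6:32853655-32853954, minus strand: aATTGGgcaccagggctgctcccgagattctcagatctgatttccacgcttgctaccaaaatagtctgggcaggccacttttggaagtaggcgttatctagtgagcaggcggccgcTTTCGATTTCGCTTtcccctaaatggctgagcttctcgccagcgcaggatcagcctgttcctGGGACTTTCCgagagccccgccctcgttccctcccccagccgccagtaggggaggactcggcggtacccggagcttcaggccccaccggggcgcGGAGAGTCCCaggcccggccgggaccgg
PSMB9, chr6:32853942-32854241, plus strand: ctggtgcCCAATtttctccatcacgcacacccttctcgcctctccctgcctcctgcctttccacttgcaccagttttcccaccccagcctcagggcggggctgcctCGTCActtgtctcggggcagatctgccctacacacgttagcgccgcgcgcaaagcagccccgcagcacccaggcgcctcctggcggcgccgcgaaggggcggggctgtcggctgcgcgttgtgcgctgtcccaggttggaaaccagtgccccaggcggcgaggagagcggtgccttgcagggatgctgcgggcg
PSMB8, chr6:32844630-32844929, minus strand: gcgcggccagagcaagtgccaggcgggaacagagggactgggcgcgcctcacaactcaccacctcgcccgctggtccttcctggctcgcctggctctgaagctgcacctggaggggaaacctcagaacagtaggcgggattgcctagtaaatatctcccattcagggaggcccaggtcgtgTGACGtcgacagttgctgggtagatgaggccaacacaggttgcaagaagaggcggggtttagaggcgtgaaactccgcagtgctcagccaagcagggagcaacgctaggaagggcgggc

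HLA-B, HLA-C and B2M each held all 4 kinds of match and in each of them a kappa B site, an interferon core, TGACG and CCAAT lay upstream of the start. The interferon core was found in 5 of the 7 matched promoters (HLA-B, HLA-C, B2M, TAP1 and TAP2), against 22.8% of 35116 RefSeq promoters of the same length. Members were counted at their outer start only, whereas the percentages count all RefSeq starts, also several of the same gene. A kappa B site was found in 4 (HLA-B, HLA-C, B2M and TAP1), against 11.3%. TGACG was found in 6, all but TAP1, against 24.6%, and CCAAT in 5 (HLA-B, HLA-C, B2M, TAP1 and PSMB9), against 34.6%. None of the 7 windows at the outer start held the interferon gamma-activated sequence TTCNNNGAA (7.66% of all promoters) or the E box CACGTG (7.26%), and only PSMB9 held the hypoxia response core ACGTG (21.4%). The RefSeq starts of TAP1 and PSMB9 are 488 bases apart and point away from each other, so at these starts the 2 genes share an upstream region. The GENCODE span of PSMB9 begins further upstream, at 32844136, and includes that of TAP1. The printed window of PSMB8 belongs to its outer start. A second RefSeq start further inside the gene has 2 interferon cores and a TTCNNNGAA match. The second RefSeq start of TAP1 also has a TTCNNNGAA match.

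The shallowest library, replicate 2 of VHL-negative cells with JQ1, held 15452949 counts and the deepest, replicate 3 of VHL-positive cells with DMSO, held 32502310, and the 9 genes together took 0.0687 to 0.223% of them, from 65 counts (PSMB9) to 22906 counts (B2M) per gene and library. VHL itself averaged 32.7 ± 2.39 CPM with JQ1 and 26.4 ± 1.64 CPM with DMSO in VHL-negative cells, and 212 ± 14.0 CPM with JQ1 and 70.3 ± 7.62 CPM with DMSO in VHL-positive cells (SD, n = 3 each). The libraries thus sorted by their VHL labels, and VHL RNA does not check the treatment labels. All 9 renal epithelial and renal carcinoma markers were detected in each group, with sums of 2111 to 2592 CPM of total counts, of which VIM alone took up to 1626 CPM. Of these 9, 5 were called lower and 2 higher in VHL-negative cells with DMSO (list median -0.66), and 4 lower and 3 higher with JQ1 (list median -0.45), so they moved with VHL status beside the class I genes. CDH16, a kidney cadherin, was lower in all 4 comparisons of 2 groups (-3.61 for VHL-negative over VHL-positive cells with DMSO, adjusted p = 1.05e-09), and CA9, a hypoxia-induced carbonic anhydrase, was higher in VHL-negative cells (9.30 with DMSO, adjusted p = 1.21e-10). The 10 leukocyte markers, of cells rich in class I molecules, summed to 1.28 to 2.09 CPM with JQ1 and 4.06 to 4.72 CPM with DMSO in VHL-negative cells, and to 1.299 to 1.52 CPM with JQ1 and 2.62 to 3.96 CPM with DMSO in VHL-positive cells. The 5 endothelial markers summed to 5.58 to 10.9 CPM with JQ1 and 4.17 to 5.72 CPM with DMSO in VHL-negative cells, and to 3.82 to 4.08 CPM with JQ1 and 2.39 to 3.28 CPM with DMSO in VHL-positive cells, and the tested one, ESAM, was called higher in all 4 comparisons. The part of these markers in the results was not tested. Mitochondrially encoded genes took 9.90 to 25.3% of the counts, both extremes in VHL-negative cells with DMSO (replicates 3 and 1), and their part was not tested either. Levels below are CPM (counts relative to library size) on TMM-scaled library sizes, listed for replicates 1, 2 and 3, with SD over n = 3 libraries. Log2 fold changes and p-values came from the quasi-likelihood test of edgeR, p-values were adjusted by the Benjamini-Hochberg method over all 20714 genes, and a gene was called at an adjusted p under 0.05.

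Most class I presentation genes were lower in VHL-negative cells than in VHL-positive cells with DMSO, and all 9 were lower with JQ1. With DMSO, 7 of the 9 members were called lower and 0 higher, where 30.7% of all tested genes were called (14.8% higher, 15.9% lower). The members' median was a log2 fold change of -0.73, beside 0.00 over all genes. PSMB9 (4.53-fold lower), HLA-B (2.75-fold), B2M (2.50-fold) and PSMB8 (2.38-fold) changed most, and HLA-E and TAP2 were not called. With JQ1, all 9 members were called lower, where 40.9% of genes were called (19.7% higher, 21.2% lower), and their median was -1.45 beside 0.03 over all genes. The libraries of the 2 kinds of cell did not overlap for 7 members with DMSO and for 9 with JQ1, all of them lower. Over all genes, every VHL-negative library was below every VHL-positive one for 21.2% with DMSO and 27.2% with JQ1, and above it for 21.5% with DMSO and 25.7% with JQ1.

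JQ1 against DMSO gave a mixed answer. In VHL-negative cells, 3 members fell and 0 rose, where 32.1% of genes were called (14.6% higher, 17.5% lower): PSMB8 fell 4.31-fold, TAP2 1.65-fold and TAP1 1.59-fold. In VHL-positive cells, 4 members rose and 1 fell, where 31.8% of genes were called (15.3% higher, 16.5% lower): HLA-E rose 1.79-fold, B2M 1.61-fold, HLA-C 1.46-fold and HLA-B 1.34-fold, and PSMB8 fell 2.25-fold. The share of members called in VHL-negative cells was thus near the background. Member medians were -0.03 in VHL-negative and 0.10 in VHL-positive cells, beside 0.03 and -0.03 over all genes. PSMB8 was the only member called in both lines.

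**Figure D1:**
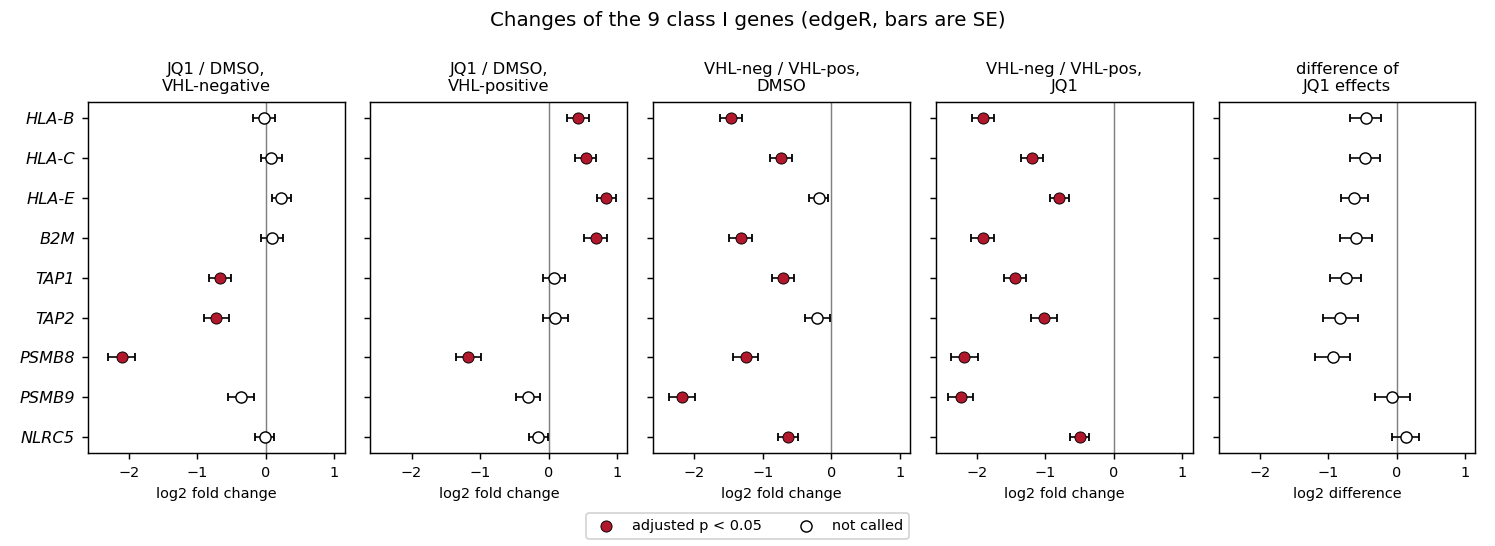
Log2 fold changes of the 9 genes (points, with SE) in 5 panels: JQ1 over DMSO in VHL-negative and in VHL-positive cells, VHL-negative over VHL-positive cells under DMSO and under JQ1, and the difference between both JQ1 effects. Filled points were called by edgeR. All 9 points lie below 0 in both panels of VHL-negative over VHL-positive cells, and in the panels of JQ1 over DMSO the lowest point is PSMB8 (-2.11 and -1.17).

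Of the class I chains, HLA-B encodes a classical heavy chain that presents peptides to CD8 T cells. It had 155, 93.9 and 125 CPM with JQ1 and 133, 118 and 130.5 CPM with DMSO in VHL-negative cells. In VHL-positive cells it had 496, 474 and 436 CPM with JQ1 and 370.3, 361 and 314 CPM with DMSO. Every VHL-negative library lay far below every VHL-positive one, and JQ1 and DMSO libraries overlapped in VHL-negative but not in VHL-positive cells. HLA-B was lower in VHL-negative cells by a log2 fold change of -1.46 with DMSO (SE 0.161, adjusted p = 3.17e-06) and of -1.91 with JQ1 (SE 0.163, adjusted p = 1.69e-07). JQ1 over DMSO gave -0.03 in VHL-negative cells (SE 0.158, adjusted p = 0.915), and HLA-B rose by 0.43 in VHL-positive cells (SE 0.158, adjusted p = 0.0491). That last call was lost in 14 of 22 alternative analyses, among them total counts alone (adjusted p = 0.122), no filter on low counts (adjusted p = 0.0791) and the removal of any single VHL-positive library (adjusted p = 0.0640 to 0.168), though the value stayed between 0.31 and 0.49.

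HLA-C, a classical heavy chain that is also read by killer-cell receptors, had the highest level per exonic length of the members in all 4 groups. It had 318, 215 and 268 CPM with JQ1 and 255, 237 and 267 CPM with DMSO in VHL-negative cells. The VHL-positive libraries had 667, 579 and 591 CPM with JQ1 and 483, 356 and 424 CPM with DMSO. No VHL-negative library reached a VHL-positive one, and in VHL-positive cells every JQ1 library was above every DMSO library. HLA-C was lower in VHL-negative cells by -0.73 with DMSO (SE 0.157, adjusted p = 0.00194) and by -1.20 with JQ1 (SE 0.158, adjusted p = 2.27e-05). With JQ1 its change was 0.08 in VHL-negative cells (adjusted p = 0.731), and it rose by 0.54 in VHL-positive cells (SE 0.156, adjusted p = 0.0148). This rise lost its call with total counts alone (0.42, adjusted p = 0.0593), when JQ1 replicate 3 was dropped in both kinds of cell (0.58, adjusted p = 0.0579), and without VHL-positive JQ1 replicate 1 (0.49, adjusted p = 0.0693) or DMSO replicate 2 (0.45, adjusted p = 0.0614).

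HLA-E encodes a nonclassical heavy chain that presents leader peptides of other class I chains to natural killer cells. It had 124, 89.3 and 102 CPM with JQ1 and 96.3, 82.1 and 91.8 CPM with DMSO in VHL-negative cells. VHL-positive cells gave 190.4, 181 and 179 CPM with JQ1 and 108, 88.2 and 111 CPM with DMSO. VHL-positive cells with JQ1 stood above the 3 other groups, which overlapped one another. With DMSO, VHL-negative over VHL-positive cells gave -0.19 (SE 0.139, adjusted p = 0.344), so no difference was called, whereas with JQ1 HLA-E was lower in VHL-negative cells by -0.80 (SE 0.139, adjusted p = 0.000296). JQ1 raised it by 0.84 in VHL-positive cells (SE 0.139, adjusted p = 0.000291), and in VHL-negative cells its change was 0.23 (SE 0.139, adjusted p = 0.23). Of 22 alternatives, the VHL-negative change passed only when protein-coding genes alone were tested (0.31, adjusted p = 0.0448).

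B2M encodes β2-microglobulin, the light chain that every class I heavy chain needs to reach the surface. It had 249.8, 155 and 204 CPM with JQ1 and 191, 168 and 213 CPM with DMSO in VHL-negative cells. Its level in VHL-positive cells was 833, 742 and 722 CPM with JQ1 and 523, 449 and 456 CPM with DMSO. As with HLA-B, the VHL-negative libraries formed a low group, whatever the treatment, and the VHL-positive JQ1 libraries were the highest. B2M was lower in VHL-negative cells by -1.32 with DMSO (SE 0.166, adjusted p = 1.38e-05) and by -1.92 with JQ1 (SE 0.169, adjusted p = 2.54e-07). It rose with JQ1 by 0.69 in VHL-positive cells (SE 0.164, adjusted p = 0.0046), and its change was 0.09 in VHL-negative cells (SE 0.164, adjusted p = 0.699). The VHL-positive rise held its call in all 22 alternatives, at 0.57 to 0.76.

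**Figure D2:**
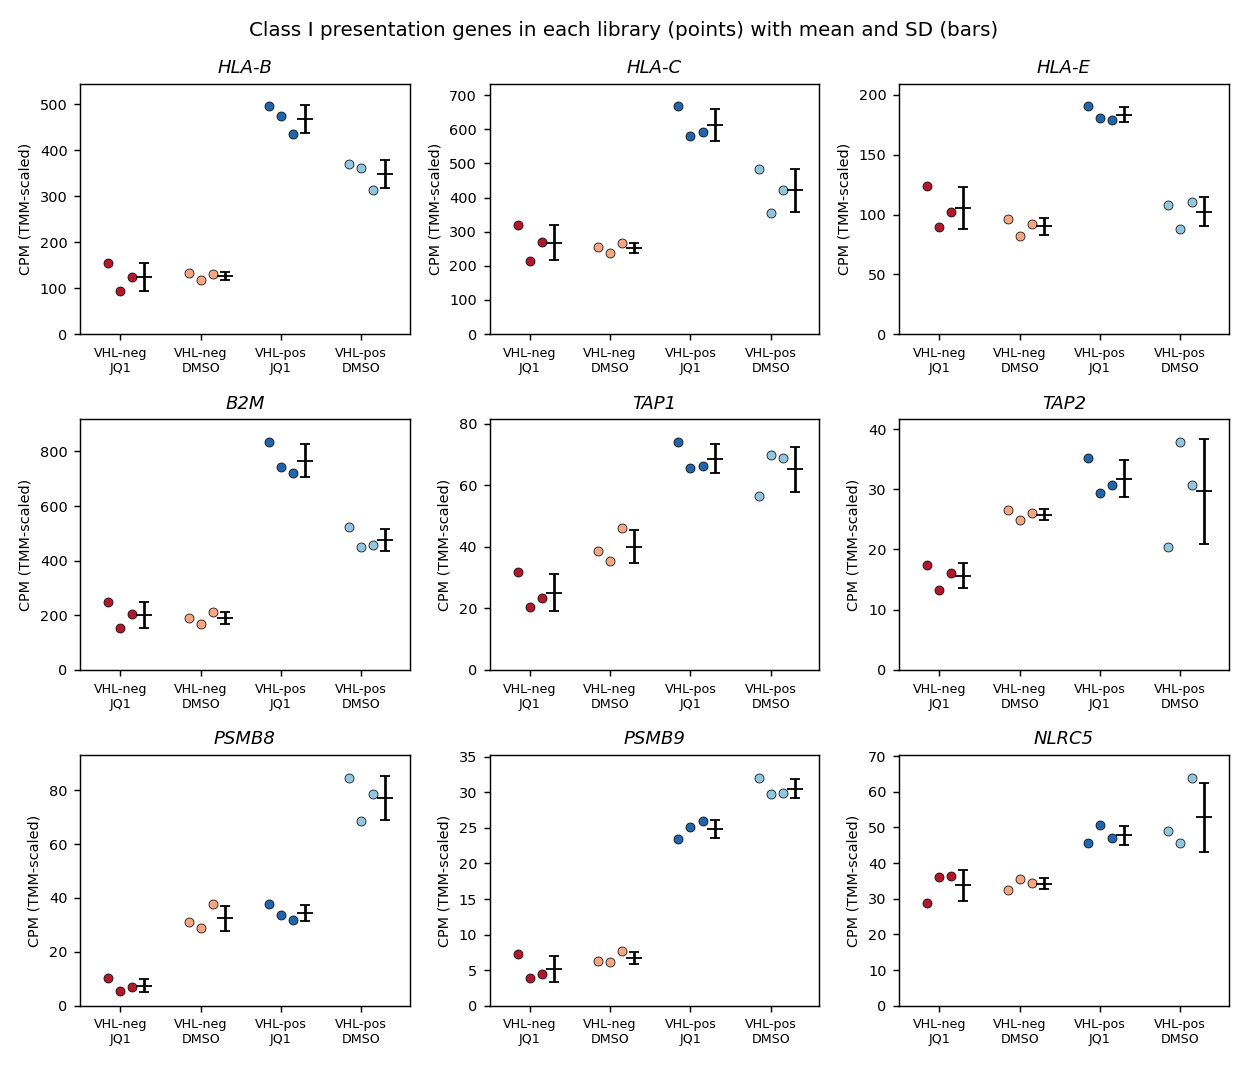
CPM on TMM-scaled library sizes of the 9 genes (vertical axes start at 0) in each of the 12 libraries (points) with the mean and SD of each group (black lines), from VHL-negative cells with JQ1 at the left to VHL-positive cells with DMSO at the right. All members but HLA-E and TAP2 separate by VHL status within both treatments, HLA-E is high only in VHL-positive cells with JQ1 (179 to 190.4 CPM), and PSMB8 is lower with JQ1 in both kinds of cell.

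TAP1 and TAP2 encode the chains of the heterodimeric transporter that carries peptides into the endoplasmic reticulum. TAP1 had 31.8, 20.3 and 23.4 CPM with JQ1 and 38.7, 35.5 and 46.1 CPM with DMSO in VHL-negative cells. In VHL-positive cells it had 74.0, 65.7 and 66.5 CPM with JQ1 and 56.7, 69.9 and 69.0 CPM with DMSO. JQ1 libraries lay below DMSO libraries in VHL-negative cells only, and in VHL-positive cells the treatments overlapped. TAP1 fell with JQ1 by 0.67 on the log2 scale in VHL-negative cells (SE 0.162, adjusted p = 0.00515), a call lost when JQ1 replicate 3 was dropped in both kinds of cell (-0.61, adjusted p = 0.0562). In VHL-positive cells its change was 0.08 (SE 0.159, adjusted p = 0.758). It was lower in VHL-negative cells by -0.70 with DMSO (SE 0.160, adjusted p = 0.00319) and by -1.45 with JQ1 (SE 0.164, adjusted p = 4.64e-06).

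TAP2 had 17.4, 13.3 and 16.0 CPM with JQ1 and 26.5, 24.8 and 26.1 CPM with DMSO in VHL-negative cells. The VHL-positive libraries had 35.3, 29.3 and 30.8 CPM with JQ1 and 20.4, 37.8 and 30.8 CPM with DMSO. The VHL-positive DMSO libraries spread widely, from below to above all VHL-negative DMSO libraries, while the VHL-negative JQ1 libraries were the lowest of all 12. TAP2 fell with JQ1 by 0.72 in VHL-negative cells (SE 0.183, adjusted p = 0.0068), and its change was 0.10 in VHL-positive cells (SE 0.179, adjusted p = 0.713). VHL-negative over VHL-positive cells gave -0.20 with DMSO (SE 0.179, adjusted p = 0.437), which was not called, and TAP2 was lower in VHL-negative cells by -1.02 with JQ1 (SE 0.184, adjusted p = 0.000395).

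PSMB8 encodes β5i, the chymotrypsin-like subunit of the immunoproteasome. It had 10.2, 5.30 and 6.88 CPM with JQ1 and 31.0, 28.8 and 37.8 CPM with DMSO in VHL-negative cells. In VHL-positive cells the levels were 37.6, 33.6 and 31.7 CPM with JQ1 and 84.5, 68.4 and 78.7 CPM with DMSO. The levels formed 3 steps: VHL-positive cells with DMSO were highest, VHL-negative cells with DMSO and VHL-positive cells with JQ1 overlapped, and VHL-negative cells with JQ1 were lowest. JQ1 lowered PSMB8 by a log2 fold change of -2.11 in VHL-negative cells (SE 0.195, adjusted p = 1.12e-06) and of -1.17 in VHL-positive cells (SE 0.182, adjusted p = 0.000176). It was lower in VHL-negative cells by -1.25 with DMSO (SE 0.182, adjusted p = 6.43e-05) and by -2.18 with JQ1 (SE 0.195, adjusted p = 2.96e-07). All 4 calls held in each of 22 alternatives.

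PSMB9 encodes β1i, the immunoproteasome subunit that replaces the caspase-like one, and its RefSeq start lies next to that of TAP1. It had 7.21, 3.87 and 4.47 CPM with JQ1 and 6.36, 6.12 and 7.75 CPM with DMSO in VHL-negative cells. VHL-positive cells gave 23.5, 25.2 and 26.0 CPM with JQ1 and 32.0, 29.7 and 29.9 CPM with DMSO. VHL status separated the libraries under both treatments, while JQ1 and DMSO libraries overlapped in VHL-negative cells and stood apart by a few CPM in VHL-positive cells. PSMB9 was lower in VHL-negative cells by -2.18 with DMSO (SE 0.184, adjusted p = 1.41e-07) and by -2.24 with JQ1 (SE 0.189, adjusted p = 1.5e-07), the largest differences by VHL status among the members. With JQ1 its change was -0.36 in VHL-negative cells (SE 0.19, adjusted p = 0.163) and -0.30 in VHL-positive cells (SE 0.173, adjusted p = 0.212). The first passed without VHL-negative JQ1 replicate 1 (-0.69, adjusted p = 0.00364) and the second in a fit of only the 2 groups compared (-0.32, adjusted p = 0.0407).

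NLRC5, the class I transactivator, had 28.8, 36.2 and 36.5 CPM with JQ1 and 32.5, 35.5 and 34.5 CPM with DMSO in VHL-negative cells. Its level in VHL-positive cells was 45.6, 50.7 and 47.1 CPM with JQ1 and 49.1, 45.7 and 63.8 CPM with DMSO. On the log2 scale it varied least of the members over the 12 libraries, and only VHL status separated its libraries. NLRC5 was lower in VHL-negative cells by -0.63 with DMSO (SE 0.141, adjusted p = 0.00278) and by -0.50 with JQ1 (SE 0.142, adjusted p = 0.0107). The call with JQ1 was lost when libraries were scaled by total counts (-0.33, adjusted p = 0.14) and when the test was limited to protein-coding genes (-0.37, adjusted p = 0.0598). JQ1 over DMSO gave -0.02 in VHL-negative cells (SE 0.142, adjusted p = 0.947) and -0.15 in VHL-positive cells (SE 0.141, adjusted p = 0.465).

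In VHL-negative cells with JQ1, replicate 1 was the highest library for 8 of the 9 members and replicate 2, the shallowest of the 12, was the lowest for 8 of the 9; NLRC5 was the exception to both. Across the 4 comparisons of 2 groups, JQ1 libraries stood wholly below DMSO libraries for 3 members in VHL-negative cells, where 22.3% of all genes did so and 20.7% stood wholly above. In VHL-positive cells they stood wholly above for 4 members (24.2% of all genes) and wholly below for 2 (24% of all genes), PSMB8 and PSMB9.

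The difference between both JQ1 effects, VHL-negative minus VHL-positive, was tested as a term of the same fit. It was called for 0 of the 9 members, where 1.21% of all genes were called (0.497% higher, 0.71% lower), and 5 members had an unadjusted p under 0.05 (HLA-E, B2M, TAP1, TAP2 and PSMB8), as did 22.5% of all genes. The values were negative for 8 members and ran from -0.94 for PSMB8 (SE 0.262, adjusted p = 0.0793) to 0.13 for NLRC5 (SE 0.2, adjusted p = 0.722), with a median of -0.59 beside 0.01 over all genes. TAP2 (-0.82, adjusted p = 0.0996), TAP1 (-0.74, adjusted p = 0.0943) and HLA-E (-0.62, adjusted p = 0.104) came next after PSMB8. DESeq2 called 4 members, HLA-E, TAP1, TAP2 and PSMB8, at adjusted p of 0.0182 to 0.0438, where it called 8.06% of the 15925 genes it adjusted, and 7 had an unadjusted p under 0.05, as did 22.2% of the genes that edgeR tested. Without VHL-negative JQ1 replicate 1, edgeR called 7 members, all but PSMB9 and NLRC5 and so including HLA-B, HLA-C, HLA-E and B2M, where 16.2% of genes were called, and without VHL-positive DMSO replicate 2 it called 1 (TAP2), where 1.58% were. With all 12 libraries edgeR did not call the difference for any of the 4 members that rose in VHL-positive cells, and without that JQ1 library it called it for each of them.

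**Figure D3:**
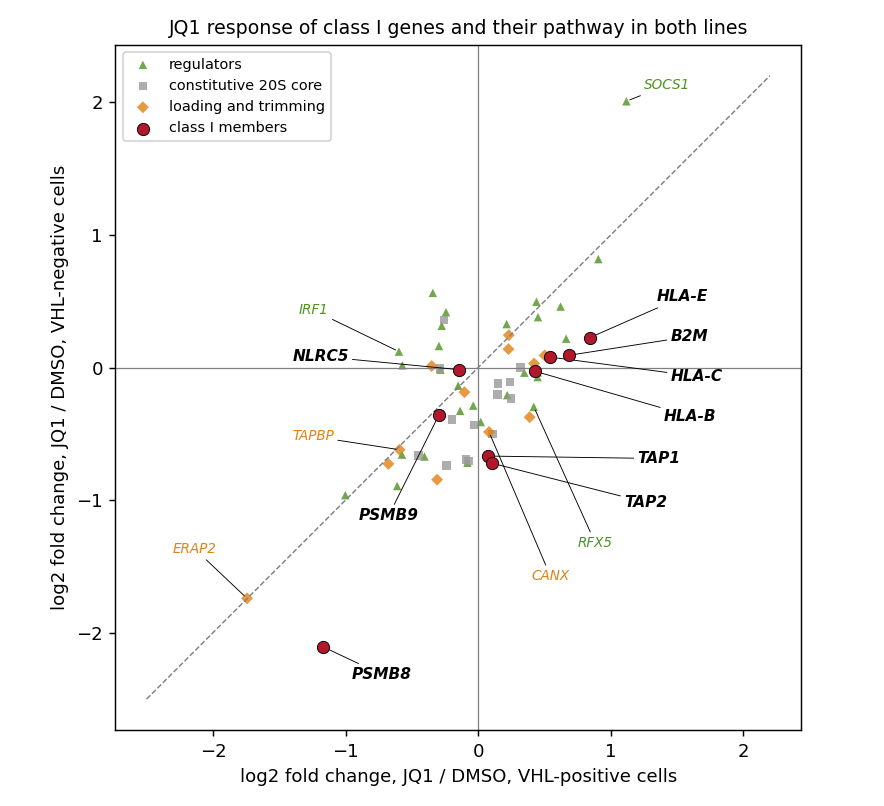
Log2 fold change of JQ1 over DMSO in VHL-positive cells (horizontal) and in VHL-negative cells (vertical) for the 9 members (red circles), regulators (triangles), peptide loading and trimming genes (diamonds) and the constitutive 20S core (squares); the dashed line marks equal change. All members but NLRC5 lie below the dashed line, where the VHL-negative change is the lower one, and ERAP2 lies on it at -1.74 in both kinds of cell.

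Per exonic kilobase, HLA-C led in every group, at 107 ± 20.5 and 101 ± 6.05 CPM per kilobase in VHL-negative cells with JQ1 and DMSO and at 244 ± 19.0 and 168 ± 25.3 in VHL-positive cells with JQ1 and DMSO. HLA-B came second, with 40.8 ± 9.98 and 41.6 ± 2.64 in VHL-negative cells with JQ1 and DMSO, against 154 ± 9.96 and 114 ± 9.86 in VHL-positive cells. In VHL-negative cells HLA-B, HLA-E (35.4 ± 5.92 with JQ1, 30.3 ± 2.44 with DMSO) and B2M (33.4 ± 7.81 with JQ1, 31.3 ± 3.69 with DMSO) followed one another, and B2M and HLA-E were inside each other's spread. In VHL-positive cells B2M stood clear of HLA-E, at 126 ± 9.76 against 61.7 ± 2.08 with JQ1 and 78.3 ± 6.73 against 34.4 ± 4.14 with DMSO. The transporter, proteasome and NLRC5 genes were lower, between 1.69 ± 0.58 (PSMB9 in VHL-negative cells with JQ1) and 25.8 ± 2.71 (PSMB8 in VHL-positive cells with DMSO). PSMB8 ranked 7th in VHL-negative cells with JQ1 and 5th in the same cells with DMSO. NLRC5, PSMB8 and TAP2 lay within one another's spread in the JQ1 group. This order rests on the merged exon lengths, such as 6079 bases for B2M and 2507 for HLA-C. In CPM without division by length, B2M was above HLA-B in every group. It was also above HLA-C in VHL-positive cells (766 against 612 with JQ1, 476 against 421 with DMSO). In VHL-negative cells B2M was below HLA-C (203 against 267 with JQ1, 190 against 253 with DMSO).

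The mix of the 3 heavy chains also differed. HLA-B made up 21.0 to 23.1% of heavy chain reads per length with JQ1 and 23.7 to 24.5% with DMSO in VHL-negative cells, and 32.6 to 34.8% with JQ1 and 33.3 to 40.8% with DMSO in VHL-positive cells. HLA-E made up 18.8 to 20.5% with JQ1 and 17.1 to 18.2% with DMSO in VHL-negative cells, and 13.0 to 13.7% with JQ1 and 10.2 to 12.0% with DMSO in VHL-positive cells. HLA-C took the rest, 49.0 to 59.2% over all libraries. The HLA-B share was thus lower, and the HLA-E share higher, in every VHL-negative library than in every VHL-positive one, and within each kind of cell every JQ1 library had a higher HLA-E share than every DMSO library. These shares are a description, without a test, and rest on how reads of similar chains were assigned.

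Each immunoproteasome subunit takes the place of a constitutive one, so its reads per length were set against that partner. The size of these percentages rests on the merged exon lengths, such as 2997 bases for PSMB8 and 1765 for PSMB5. Differences in log2 ratio between groups do not depend on these lengths. PSMB8 made up 7.41, 7.22 and 6.51% of the pair PSMB8 and PSMB5 with JQ1 and 17.5, 16.0 and 17.2% with DMSO in VHL-negative cells. In VHL-positive cells it made up 19.4, 19.5 and 18.6% with JQ1 and 35.0, 31.7 and 34.3% with DMSO. The share of PSMB8 was lower with JQ1 in both kinds of cell and was lower in VHL-negative cells under both treatments, with no overlap in any of the 4 comparisons. The log2 ratio of PSMB8 to PSMB5 differed with JQ1 by -1.42 in VHL-negative and by -1.09 in VHL-positive cells, and VHL-negative minus VHL-positive cells gave -1.32 with DMSO and -1.65 with JQ1. The exact two-sided permutation p was 0.1 for each, the smallest that 3 against 3 libraries allow (0.12 adjusted over 12 comparisons), so none can pass 0.05.

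PSMB9 was set against PSMB6, the subunit it replaces. It made up 6.39, 6.57 and 5.55% of that pair with JQ1 and 4.16, 5.00 and 5.49% with DMSO in VHL-negative cells, and 14.4, 17.2 and 16.6% with JQ1 and 19.8, 14.8 and 15.7% with DMSO in VHL-positive cells. The log2 ratio was 0.36 higher with JQ1 in VHL-negative cells (exact permutation p = 0.1), where PSMB6 itself fell (-0.74, adjusted p = 0.00701), and differed by -0.07 in VHL-positive cells (exact permutation p = 0.8). VHL-negative minus VHL-positive cells gave -1.97 with DMSO and -1.54 with JQ1 (exact permutation p = 0.1 each). PSMB10, the remaining immunoproteasome subunit and no member of the list, fell with JQ1 in VHL-negative (-0.92, adjusted p = 0.00354) and in VHL-positive cells (-1.03, adjusted p = 0.000966). Its log2 ratio to PSMB7 differed with JQ1 by -0.23 in VHL-negative cells (exact permutation p = 0.2) and by -0.93 in VHL-positive cells (exact permutation p = 0.1). VHL-negative minus VHL-positive cells gave -1.13 with DMSO and -0.43 with JQ1 for this ratio (exact permutation p = 0.1 each). PSMB10 itself was also called lower in VHL-negative cells under both treatments.

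**Figure D4:**
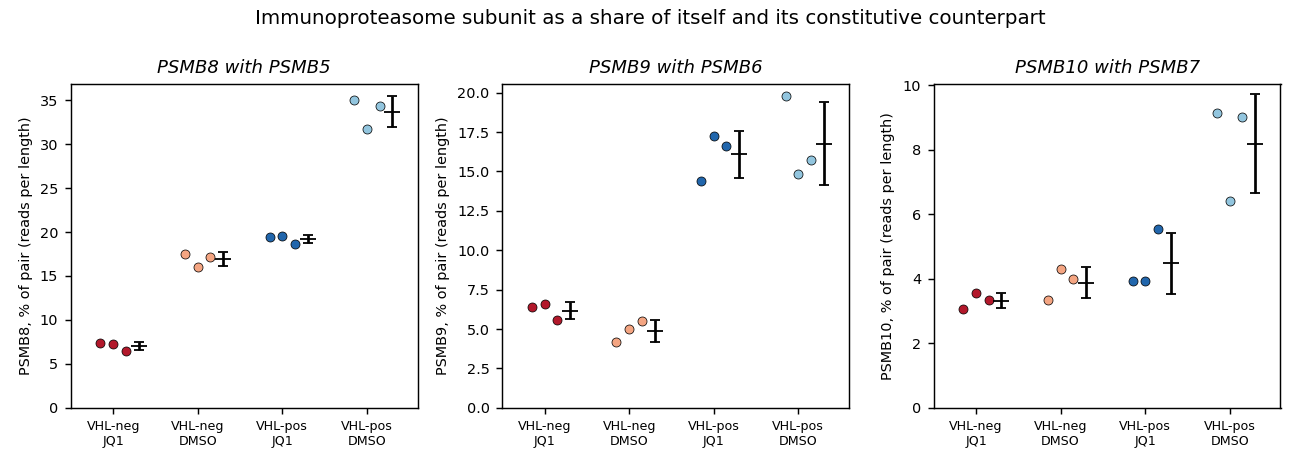
Share of each immunoproteasome subunit in the reads per length of itself and its constitutive partner (percent, axes start at 0) in each of the 12 libraries (points), with the mean and SD of each group (black lines). The PSMB8 share is lowest in VHL-negative cells with JQ1 (6.51 to 7.41%) and highest in VHL-positive cells with DMSO (31.7 to 35.0%), and the PSMB9 share is 4.16 to 6.57% in the VHL-negative libraries.

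Genes that work with these 9 were counted by list, beside the shares of all genes called (30.7% for VHL-negative over VHL-positive cells with DMSO, 40.9% with JQ1, and 32.1% in VHL-negative and 31.8% in VHL-positive cells for JQ1 over DMSO). Other annotated genes overlap 34.8% of the exonic bases of PSMB10 on the same strand and 28.5% of those of HLA-F on the opposite strand, and IRF1 shares exonic bases with its antisense gene IRF1-AS1. Since the strand setting of the counting is not given, reads from these stretches cannot be told apart. Of 12 peptide loading and trimming genes, 6 were lower and 2 higher in VHL-negative cells with DMSO, and 8 were lower and 2 higher with JQ1, which is 66.7% and 83.3% of the list. With JQ1 against DMSO, 5 fell and 0 rose in VHL-negative cells (41.7%), and 3 fell and 1 rose in VHL-positive cells (33.3%, near the share of all genes). The list's median log2 fold changes were -0.29 with DMSO and -0.68 with JQ1 for VHL-negative over VHL-positive cells, and -0.28 in VHL-negative and -0.01 in VHL-positive cells for JQ1 over DMSO. TAPBP, the tapasin that holds class I molecules at TAP, was lower in all 4 comparisons, which share libraries, at 99.9 ± 14.5 CPM with JQ1 and 154 ± 29.8 CPM with DMSO in VHL-negative cells and 179 ± 20.1 CPM with JQ1 and 269 ± 44.6 CPM with DMSO in VHL-positive cells. Its relative TAPBPL and the peptide-trimming aminopeptidase ERAP2 were also lower in all 4. ERAP2 changed most, by -1.74 with JQ1 in VHL-negative (adjusted p = 1.61e-05) and in VHL-positive cells (adjusted p = 6.71e-06). ERAP1, which trims peptides in the same compartment, fell with JQ1 in VHL-negative cells (-0.85, adjusted p = 0.000373) and had -0.31 in VHL-positive cells (adjusted p = 0.113), while calnexin (CANX), a chaperone of new heavy chains, fell in VHL-negative cells (-0.49, adjusted p = 0.0282) and had 0.08 in VHL-positive cells (adjusted p = 0.737).

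Genes of the constitutive 20S proteasome core were lower or not called. Of its 14 genes, 4 fell with JQ1 in VHL-negative cells (PSMB3, PSMB5, PSMB6 and PSMB7) and 0 in VHL-positive cells, and 2 were lower in VHL-negative cells with DMSO and 10 with JQ1, and none of the 14 rose in these comparisons. The shares called were thus 28.6% and 0% for JQ1 in VHL-negative and VHL-positive cells, both below the share of all genes, and 14.3% with DMSO and 71.4% with JQ1 for VHL status. Their medians were -0.31 with JQ1 in VHL-negative and -0.05 in VHL-positive cells, and VHL-negative over VHL-positive cells gave -0.16 with DMSO and -0.56 with JQ1. Another list held 6 genes: PSMB10, the proteasome activators and the assembly factor POMP. With JQ1, 1 rose and 1 fell in each kind of cell (33.3%, near the share of all genes). In VHL-negative cells 2 were lower with DMSO (33.3%, near that share) and 3 with JQ1 (50%, beside 40.9%), and 0 were higher. PSME4 rose with JQ1 in both kinds of cell (0.48, adjusted p = 0.00428, and 0.43, adjusted p = 0.00866). POMP was lower in VHL-negative cells (-0.62 with DMSO, adjusted p = 0.0128, and -0.71 with JQ1, adjusted p = 0.00432). PSME1 and PSME3 were not called in any comparison of 2 groups.

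Of 29 factors of class I promoters and of interferon signalling, 10 were lower and 2 higher in VHL-negative cells with DMSO, and 10 were lower and 3 higher with JQ1, with list medians of -0.16 and -0.27. That is 41.4% of the list with DMSO and 44.8% with JQ1, the second near the 40.9% of all genes. RFX5, which binds the X box, had 27.1, 19.6 and 22.1 CPM with JQ1 and 30.8, 26.2 and 27.8 CPM with DMSO in VHL-negative cells, and 89.9, 92.7 and 87.7 CPM with JQ1 and 71.9, 56.5 and 73.6 CPM with DMSO in VHL-positive cells. It was lower in VHL-negative cells by -1.26 with DMSO (adjusted p = 4.46e-06) and -1.97 with JQ1 (adjusted p = 3.03e-08), and rose with JQ1 in VHL-positive cells (0.42, adjusted p = 0.0309). IRF1, an activator of class I genes, was lower in VHL-negative cells with DMSO (-1.29, adjusted p = 9.11e-07). It fell with JQ1 (-0.60, adjusted p = 0.00199) in VHL-positive cells. The part of RFX5 and of IRF1 in the class I changes was not tested.

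With JQ1, 5 of these 29 factors rose and 5 fell in VHL-negative cells, and 8 rose and 6 fell in VHL-positive cells, with list medians of -0.02 and -0.08. The share called in VHL-negative cells (34.5%) was near that of all genes (32.1%), and in VHL-positive cells it was 48.3% beside 31.8%. SOCS1, an inhibitor of interferon signalling, rose in both (2.01, adjusted p = 0.000163, and 1.12, adjusted p = 0.00863), though at low levels of 2.73 ± 0.113 CPM with JQ1 and 0.664 ± 0.245 CPM with DMSO in VHL-negative cells. NFKB1, a subunit of the factor that binds kappa B sites, fell in both (-0.96, adjusted p = 0.000153, and -1.002, adjusted p = 0.000127). The kinase JAK1 rose in VHL-positive cells (0.66, adjusted p = 0.00289) and was lower in VHL-negative cells with JQ1 (-1.09, adjusted p = 3.15e-05).

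Class I-like molecules were called in both directions. Of 14 listed, 10 were tested, and in VHL-negative over VHL-positive cells 1 was lower and 3 higher with DMSO (list median -0.27), and 3 were lower and 3 higher with JQ1 (list median -0.25), which is 40% and 60% of those tested. With JQ1 over DMSO, 2 rose and 2 fell in VHL-negative cells (40% of those tested, beside 32.1% of all genes). In VHL-positive cells 2 rose and 3 fell (50%, beside 31.8% of all genes). With DMSO, HLA-F, a nonclassical class I chain, was the lower one (-1.03, adjusted p = 0.000422), and ULBP1 (1.51, adjusted p = 1.58e-05), ULBP3 and MICB, stress ligands of the receptor NKG2D, were the higher ones. With JQ1 the stress ligand MICA rose in VHL-negative (0.52, adjusted p = 0.02) and in VHL-positive cells (0.94, adjusted p = 0.000352), and MR1, which presents vitamin B metabolites, fell in both (-1.70, adjusted p = 1.1e-05, and -0.95, adjusted p = 0.00112). The stress ligands did not move together with JQ1: ULBP3 also rose in both kinds of cell, ULBP1 fell in both, and MICB was called in neither. Of 13 MHC class II genes 6 were tested, and 5 of these were lower in VHL-negative cells under each treatment, with list medians of -2.52 with DMSO and -2.69 with JQ1 (83.3% called under each). CD74, the invariant chain, averaged 37.8 ± 6.54 CPM with JQ1 and 34.6 ± 10.1 CPM with DMSO in VHL-negative cells, against 218 ± 13.9 CPM with JQ1 and 175 ± 36.6 CPM with DMSO in VHL-positive cells. Of 10 checkpoint genes 8 were tested, and 0 were lower and 3 higher in VHL-negative cells with DMSO (list median -0.04), and 2 were lower and 1 higher with JQ1 (list median -0.01), 37.5% of those tested under each treatment. CD274 (PD-L1), a ligand that restrains T cells, was higher in VHL-negative cells with DMSO (1.56, adjusted p = 0.000116), had 0.60 with JQ1 (adjusted p = 0.064), and fell with JQ1 in VHL-negative cells (-1.21, adjusted p = 0.00118).

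Likeness of profiles was measured as the root mean square difference of centred log2 CPM over the 12 libraries, where 0 means the same profile, among 13568 protein-coding genes. The nearest pair of members was HLA-B and B2M (0.13), which lie on different chromosomes, followed by HLA-C and HLA-E (0.27) and by TAP1 and TAP2 (0.29). PSMB8 lay 0.74 (PSMB9) to 1.27 (HLA-E) from the other members. The 2 nearest of all genes were B2M and RFX5 (0.17) for HLA-B, GUK1 and KDM4A for HLA-C, PEPD and LHPP for HLA-E, OCLN and HLA-B for B2M, ZMPSTE24 and CNDP2 for TAP1, CAP1 and RAB35 for TAP2, PIK3AP1 and OAF for PSMB8, SLCO4C1 and RNF144B for PSMB9, and RUSC2 and ATP11A for NLRC5. These distances describe 12 libraries that share 4 group means and have no test.

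The comparison of JQ1 with DMSO in the authors' deposited tables, 1 per kind of cell, gave the same sign for every called member as the counts refitted here. In the authors' deposited table for VHL-negative cells PSMB8 had -2.14 (adjusted p = 7.47e-23), TAP2 -0.75 and TAP1 -0.70. In the authors' deposited table for VHL-positive cells HLA-E had 0.85, B2M 0.69, HLA-C 0.55, HLA-B 0.43 (adjusted p = 0.0409) and PSMB8 -1.16.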

How the data were processed

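Per the labels, total RNA was DNase-treated, depleted of rRNA and sequenced on a NextSeq instrument. Per the submitters' processing notes, STAR 2.7.8, featureCounts of Subread 2.0.3 and DESeq2 1.30.1 were used on GRCh38; their settings, the strand included, are not given in the sources used here. The authors deposited raw counts per gene for 12 libraries, and 2 tables of their own comparisons with log2 fold changes, standard errors, a test statistic (a score), p-values and a mean normalized level per gene.

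Here the deposited counts of 60663 IDs were fitted with edgeR 4.0.16 (quasi-likelihood, TMM factors, filterByExpr by group, 1 mean for each of 4 groups over all 12 libraries; R 4.3.3, limma 3.58.1), and p-values were adjusted by Benjamini and Hochberg over 20714 genes. Each SE was computed as the size of the log2 fold change over the root of its F statistic. CPM used TMM-scaled library sizes; the likeness of profiles used log2 CPM with a prior count of 2. DESeq2 1.42.0 was an alternative, as were other scalings, filters, thresholds, sets of libraries and a replicate block. Ratios of 2 genes were tested by exact permutation. The code was tested on simulated data. Groups came from the labels, and gene positions from GENCODE release 29. Named genes were the 9 members, up to 4 tested genes per list and comparison with the smallest p, VHL as a label check, and the 2 nearest profiles. One listed regulator is counted in its list but not reported here by itself or drawn. The members and lists were chosen with earlier results of these data known. Cells with a knockdown of MYC named in the protocols were not analysed here. Depth per library is given with the results. Replicates differed by more than sampling noise on total counts (chi-square per gene of 7.84 to 199.5), and none were pooled as repeats. That check cannot tell separate cultures from technical libraries of the same culture.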

Additional observations from a re-analysis of the deposited data

Results flagged for a closer look

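VHL RNA itself responded to JQ1 differently in the 2 kinds of cell, by the test of the difference between both JQ1 effects (-1.29 on the log2 scale, VHL-negative minus VHL-positive, adjusted p = 0.00161, edgeR's quasi-likelihood test). It averaged 32.7 ± 2.39 CPM with JQ1 and 26.4 ± 1.64 CPM with DMSO in VHL-negative cells (log2 fold change 0.31, adjusted p = 0.0674), against 212 ± 14.0 CPM with JQ1 and 70.3 ± 7.62 CPM with DMSO in VHL-positive cells (1.59, adjusted p = 3.47e-07; SD, n = 3 each). The 3 JQ1 libraries of VHL-positive cells thus hold more VHL RNA than the 3 DMSO libraries, beside each comparison of class I genes that uses them, and the part of this in the class I results was not tested. The search for flagged results left out the cell type markers. Of the 9 renal epithelial and renal carcinoma markers, 1 was called higher and 1 lower for the same difference (22.2%, beside 1.21% of all genes).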

How the results depend on the processing

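Among the values of single members under alternatives, 917 kept their direction and side of the threshold, 21 lost it, 18 gained it and 25 changed sign. In VHL-positive cells the members called with JQ1 were 3 in place of 5 with total counts alone, without JQ1 replicate 3 in both kinds of cell and at an adjusted p under 0.01, and 3 to 5 when single libraries were left out (3 without VHL-positive JQ1 replicate 1 or DMSO replicate 2). For the difference between both JQ1 effects they were 3 without a filter, 4 with DESeq2 and 0 to 7 with single libraries left out, 7 without VHL-negative JQ1 replicate 1; over all genes it had 1336, 1283, 25 (without the third JQ1 libraries), 47 (adjusted p under 0.01) and 43 to 3510 calls against 250. Without the third JQ1 libraries and at 0.01, calls over all genes were 3957 and 4039 for JQ1 in VHL-negative cells and 4160 and 3989 in VHL-positive cells, and 4814 and 5483 for VHL-negative over VHL-positive cells with JQ1; with DMSO they were 4137 at 0.01. Signs turned only for values that were not called. For JQ1 in VHL-negative cells, HLA-B gave 0.014 and NLRC5 0.035 with a filter of 1 CPM, and 0.051 and 0.080 with protein-coding genes only. For JQ1 in VHL-positive cells, TAP1 gave -0.034 and TAP2 -0.0013 with total counts, and -0.016 and -0.11 without the first DMSO libraries. The difference for PSMB9 was 0.0099 with total counts, 0.055 with protein-coding genes and 0.061 without the third JQ1 libraries. With single libraries left out, ranges that crossed 0 were, for JQ1 in VHL-negative cells, HLA-B -0.22 to 0.15, HLA-C -0.074 to 0.22, B2M -0.094 to 0.27 and NLRC5 -0.071 to 0.080; in VHL-positive cells TAP1 -0.015 to 0.15, TAP2 -0.11 to 0.33, NLRC5 -0.22 to 0.020 and the ratio of PSMB9 to PSMB6 -0.17 to 0.086; with DMSO TAP2 -0.41 to 0.021; and for the difference PSMB9 -0.41 to 0.093 and NLRC5 -0.040 to 0.21. The cause of these changes was not tested. Total counts put the median of all genes at -0.14 in place of -0.03 for JQ1 in VHL-positive cells and at 0.19 in place of 0.03 for VHL-negative over VHL-positive cells with JQ1. Same-numbered libraries correlated at -0.26 to 0.33, and in no comparison were all 3 pairs over 0.1, so no consistent pairing was shown and the numbers were not used to pair libraries; with a replicate block 3, 5, 7, 9 and 0 members were called, and over all genes 6612, 6423, 6191, 8406 and 272, in the order of JQ1 in VHL-negative and VHL-positive cells, VHL status with DMSO and with JQ1, and the difference.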
